A study of Mus musculus with 12 samples.

Results

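Prostaglandins are made from arachidonic acid in a short chain of enzymes, and the mRNAs of 9 genes of that chain were read in 3T3-L1 cells. This line of mouse preadipocytes becomes fat cells when given adipogenic hormones. The genes were taken by symbol and each was held by 1 of the 22206 probe sets measured: Pla2g4a, Ptgs1, Ptgs2, Ptges, Ptges2, Ptges3, Ptgis, Ptgds and Hpgd. The cells had been cultured for 14 days with 5 µM of squalene (SQ), of the ethylene glycol squalene derivatives mono-SQ, di-SQ, tri-SQ or tetra-SQ, or with no compound (control), and each of these 6 groups had 2 Clariom S mouse arrays, 12 in all. What the prefixes mono, di, tri and tetra count is not stated. The controls are labelled as untreated and not induced, whereas the protocol puts the compounds into a differentiation medium (IBMX, dexamethasone and insulin, then insulin) that is used with or without them. Whether the control cells received the hormones therefore cannot be read from the labels. It is also not stated that the 2 arrays of a group came from separate cultures, so p-values measure only the spread between these arrays, which may be technical.

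Cytosolic phospholipase A2 (Pla2g4a) frees arachidonic acid from membrane lipids. The cyclooxygenases COX-1 (Ptgs1) and COX-2 (Ptgs2) turn it into prostaglandin H, the common precursor; COX-1 is made steadily in many cells, while COX-2 is induced by growth factors, cytokines and stress. Terminal synthases then make prostaglandin E (Ptges, Ptges2, Ptges3), prostacyclin (Ptgis) or prostaglandin D (Ptgds), and hydroxyprostaglandin dehydrogenase (Hpgd) inactivates the products. In fat tissue, prostaglandin E and prostaglandin F are known to hold back adipocyte differentiation, and prostacyclin is known to promote it at early stages.

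On GRCm38, 5 of the 9 lay on chromosome 2 and 2 on chromosome 1. Pla2g4a (chr1:149829618-149961290) and Ptgs2 (chr1:150100031-150108234), which encode consecutive enzymes of the chain, were 139 kb apart with 0 protein-coding genes between them. On chromosome 2 lay Ptgs1 (chr2:36216742-36258593), Ptges (chr2:30889471-30931020), Ptges2 (chr2:32395890-32402740), Ptgds (chr2:25466709-25470110) and Ptgis (chr2:167203194-167252150). Ptges3 was at chr10:128058982-128077254 and Hpgd at chr8:56294552-56321046.

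The start regions of the cyclooxygenase genes are shown because their mRNAs differed most between the arrays described below, and that of Ptges2 because it was the gene that moved the other way. Each sequence is the RefSeq window (GRCm38.p6) of 300 bases, 250 before and 50 after a listed start, 5′ to 3′ on the + strand at chr1:150099781-150100080 for Ptgs2, chr2:36230176-36230475 for Ptgs1 and chr2:32395640-32395939 for Ptges2. Capitals mark matches to 5 motifs searched on both strands.
Ptgs2: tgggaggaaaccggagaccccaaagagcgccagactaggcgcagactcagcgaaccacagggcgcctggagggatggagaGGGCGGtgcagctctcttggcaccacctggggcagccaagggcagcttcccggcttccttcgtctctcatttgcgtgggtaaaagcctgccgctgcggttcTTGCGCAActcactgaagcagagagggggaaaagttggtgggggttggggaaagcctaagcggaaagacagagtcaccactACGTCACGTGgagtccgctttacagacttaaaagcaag
Ptgs1: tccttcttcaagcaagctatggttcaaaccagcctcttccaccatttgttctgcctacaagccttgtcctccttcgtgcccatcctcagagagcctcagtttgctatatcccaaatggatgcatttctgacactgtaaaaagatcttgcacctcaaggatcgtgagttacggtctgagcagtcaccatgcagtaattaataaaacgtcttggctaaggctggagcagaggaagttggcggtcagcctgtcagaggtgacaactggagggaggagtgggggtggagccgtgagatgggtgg
Ptges2: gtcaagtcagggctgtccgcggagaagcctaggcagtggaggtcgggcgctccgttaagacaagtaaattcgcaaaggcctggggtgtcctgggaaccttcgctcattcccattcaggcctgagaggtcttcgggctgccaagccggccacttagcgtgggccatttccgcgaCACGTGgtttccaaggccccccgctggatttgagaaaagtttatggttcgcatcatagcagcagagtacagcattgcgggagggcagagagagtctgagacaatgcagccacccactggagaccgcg
The Ptgs2 window held a GC box (GGGCGG) at -170 to -165 from the listed start and the C/EBP palindrome TTGCGCAA at -69 to -62. It also held a CRE core (ACGTCA) at 12 to 17 that overlaps an E-box (CACGTG) at 16 to 21. Positions count from the listed start, and where transcription begins was not measured. Whether the CRE core and this E-box lie in transcribed sequence is therefore not known here. The palindrome occurs in 0.183% of the 32851 RefSeq windows of this length, the CRE core in 7.51%, the E-box in 7.15% and the GC box in 35.7%. The Ptgs1 window, whose listed start lies within the span of the gene, held none of them, nor the TATA box letters TATAAA, which 13.6% of the windows hold. The Ptges2 window held an E-box at -77 to -72. A window was found for 8 of the 9 genes. A match is a run of letters, and binding was not measured.

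Levels are log2 array signals, and those of different probe sets are not set against each other. As background, 5222 negative control probe sets had array medians of 6.09 to 6.66 (log2, from the other deposited table of these arrays), and their 95th percentile was 10.02 to 10.83. Ptgs1 and Ptges lay above that 95th percentile on all 12 arrays, Ptgis on 3 and Ptges3 on 1. Pla2g4a, Ptges2, Ptges3 and Ptgis were above the negative control median on all 12 arrays. Ptgs2 was above it on 7 of the 12 arrays, among them all 5 second compound arrays, and on none of the 12 above the 95th percentile. With its signals also taken from the other deposited table, Ptgs2 was above the median on all 5 second compound arrays. There it was also above on 2 of the 5 first compound arrays and on 1 of the 2 control arrays. Ptgds and Hpgd were below the median on all 12 arrays, so their values cannot be told from background.

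The arrays labelled replicate 2 stood apart from those labelled replicate 1 in all 5 compounds, whereas the 2 control arrays lay close together. What the number stands for is not labelled. Deviations from the group means correlated at 0.48 to 0.719 between same-numbered arrays over the 10 pairs of compounds, and at -0.001 to 0.002 between compounds and control. Of 9 adipocyte markers, 9 were lower on every second than on every first compound array (summed level 17.57 to 18.10 on the second, 20.01 to 20.31 on the first and 19.90 to 19.95 in control, log2), and 4 of 7 preadipocyte and fibroblast markers were higher (summed level 19.51 to 19.68 on the second, 17.92 to 18.64 on the first and 18.75 to 18.79 in control). Among all probe sets, 8.86% were lower on every second than on every first compound array, and 9.89% were higher. Of the macrophage markers 6 of 7, Adgre1, Ptprc and Csf1r among them, and of the endothelial markers 5 of 5, such as Pecam1 and Cdh5, were below the negative control median on all 12 arrays. For muscle, 4 of 5 markers, Myod1 and Myog among them, were below it. In bulk RNA, fewer cells of a type and less RNA per cell cannot be told apart. The part of these marker shifts in the results below was not tested. The 9 genes are therefore described mainly on the second and first compound arrays apart, where the mean runs over 5 different compounds, and the calls for the compounds as labelled are given beside them.

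**Figure D1:**
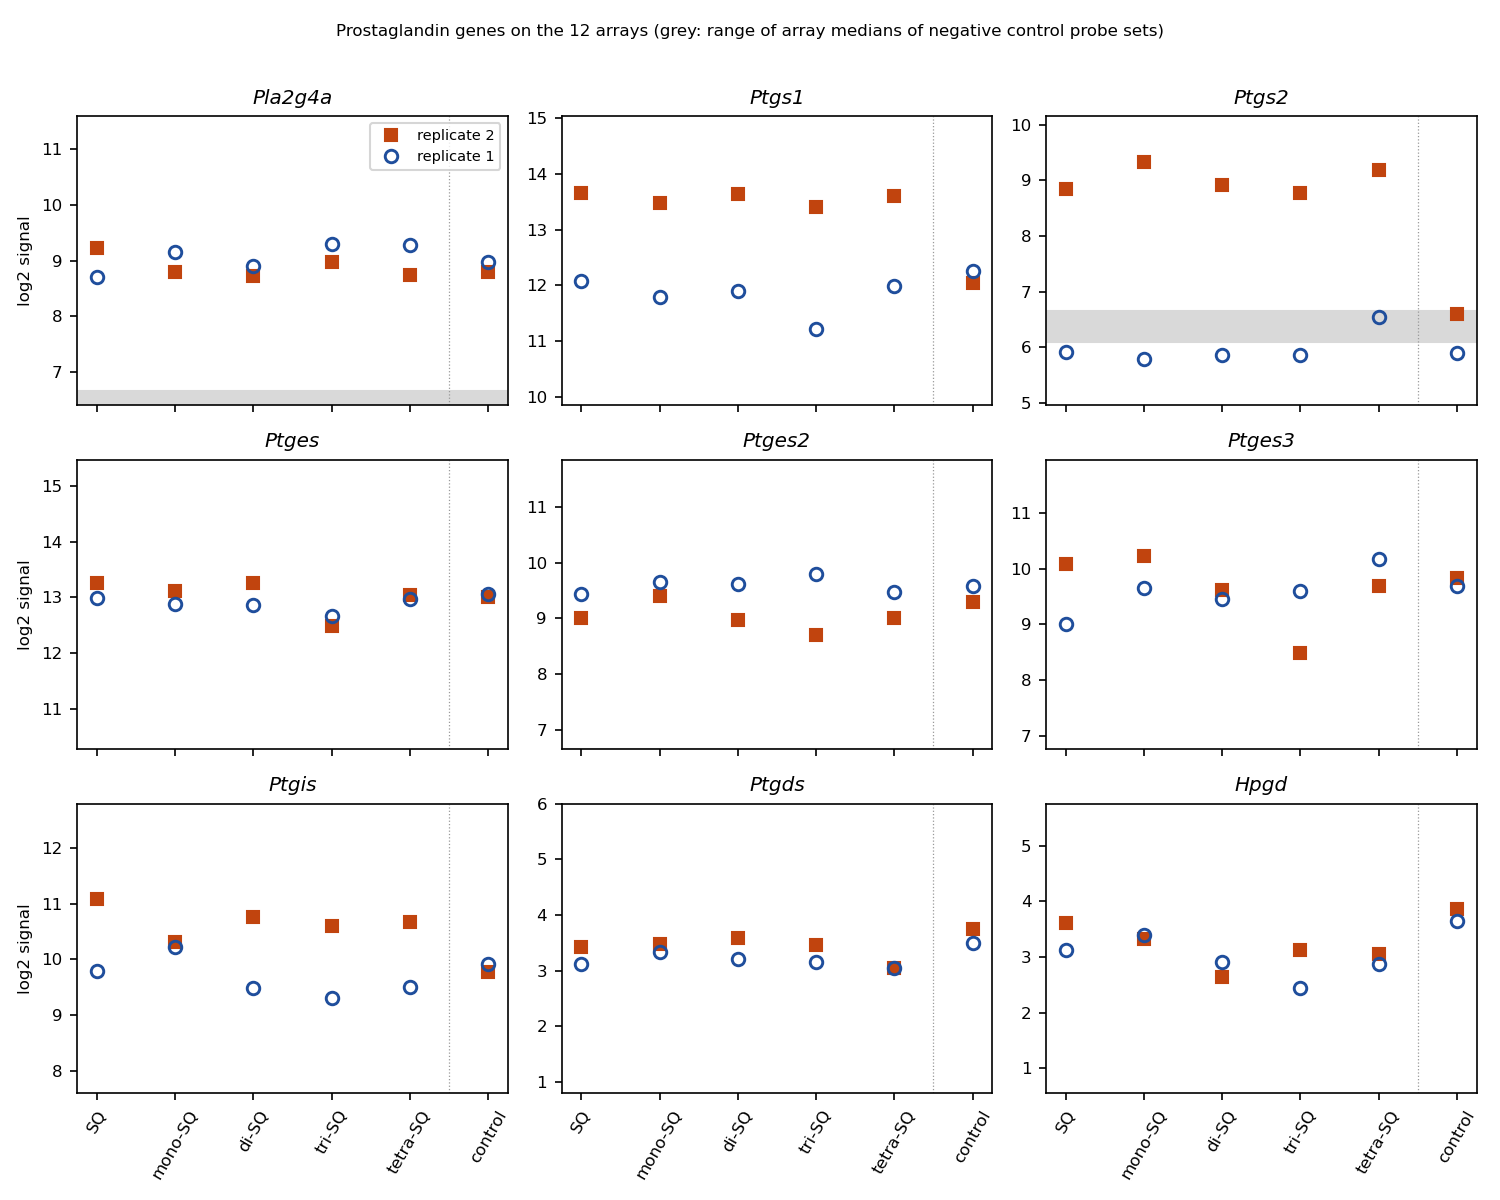
Log2 signal of the 9 genes (y axis, every panel spanning the same number of log2 units) by compound, with control at the right (x axis); squares are the arrays numbered 2, open circles those numbered 1, and the grey band is the range of the array medians of negative control probe sets. The squares of Ptgs1, Ptgs2 and Ptgis lie above the circles in all 5 compounds, and those of Ptges2 below them. The band is seen only where it falls within the range of a panel, and the panels of Ptgds and Hpgd end below it.

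Both cyclooxygenase mRNAs and prostacyclin synthase were higher on the second than on the first compound arrays, and the membrane-associated prostaglandin E synthase 2 (Ptges2) was lower. These 4 of 9 genes passed the test (limma, Benjamini-Hochberg adjusted p under 0.05 over all 22206 probe sets, compound as a block). Of all probe sets, 21.2% passed it, 11.2% higher and 9.96% lower. The median log2 difference was 0.21 over the 9 genes and -0.02 over all probe sets. The other 5 genes did not pass.

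Ptgs2, the inducible cyclooxygenase, had signals of 8.85, 9.32, 8.92, 8.78 and 9.19 (log2) on the second arrays of SQ and of mono-, di-, tri- and tetra-SQ. On the first arrays of the same compounds it had 5.92, 5.79, 5.86, 5.87 and 6.55, and on the 2 control arrays 5.89 and 6.59. Every second array was above every other array, and the first arrays overlapped the controls. The difference was 3.01 ± 0.16 (log2 ± SE, 95% interval 2.66 to 3.37) between second and first arrays, with a limma adjusted p of 5.60e-07. Against control it was 2.77 ± 0.24 on the second arrays (limma adjusted p = 5.33e-07) and -0.24 ± 0.24 on the first (limma adjusted p = 0.735). Since the first and the control arrays were at or near background, a lower estimate was computed. Each of their values was raised to the negative control median of its array where it lay below. Means as measured in the other deposited table were 9.14 on the second arrays, 6.21 on the first and 6.50 in control. After raising, Ptgs2 was 7.11-fold higher on the second than on the first arrays and 6.11-fold higher than in control. These are point estimates without an interval. The 95% interval of the unraised difference between second arrays and control was 2.26 to 3.28 (log2).

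Ptgs1, the constitutive cyclooxygenase, had signals of 13.66, 13.48, 13.64, 13.40 and 13.60 (log2) on the second arrays of SQ and of mono-, di-, tri- and tetra-SQ. Its first arrays had 12.08, 11.78, 11.89, 11.22 and 11.99, and the control arrays 12.26 and 12.04. The second arrays were all above the others and lay within a narrower range than the first. The second arrays exceeded the first by 1.76 ± 0.15 (log2 ± SE), a 3.4-fold difference with a limma adjusted p of 1.39e-05, and the controls by 1.41 ± 0.21 (limma adjusted p = 1.49e-04). The first arrays against control gave -0.36 ± 0.21 (limma adjusted p = 0.52). Both cyclooxygenases thus passed in the same direction, on one set of arrays.

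Ptgis, which converts prostaglandin H into prostacyclin, had signals of 11.09, 10.32, 10.76, 10.60 and 10.67 (log2) on the second arrays of SQ and of mono-, di-, tri- and tetra-SQ. On the first arrays it had 9.80, 10.23, 9.48, 9.31 and 9.50, and on the control arrays 9.91 and 9.78. The second arrays did not overlap the first or the controls, but the 2 mono-SQ arrays differed by 0.09, against 1.17 to 1.29 in the other compounds. The second arrays exceeded the first by 1.02 ± 0.20 (log2 ± SE, limma adjusted p = 0.00337) and the controls by 0.84 ± 0.24 (limma adjusted p = 0.0208). The call against control was lost without control replicate 1 (0.91, limma adjusted p = 0.113) and without control replicate 2 (0.78, limma adjusted p = 0.184).

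Of the 3 prostaglandin E synthases, Ptges2 passed and Ptges and Ptges3 did not. Ptges, the inducible microsomal enzyme that works with COX-2, had signals of 13.25, 13.11, 13.25, 12.49 and 13.04 (log2) on the second arrays of SQ and of mono-, di-, tri- and tetra-SQ. Its first arrays had 12.99, 12.88, 12.87, 12.67 and 12.96, and the control arrays 13.05 and 13.00. Second and first arrays overlapped, both tri-SQ arrays were the lowest of the 12, and the difference of 0.15 ± 0.14 (log2 ± SE) did not pass (limma adjusted p = 0.538). Ptges2 had 9.0, 9.41, 8.97, 8.71 and 9.0 (log2) on the second arrays in the same order, 9.44, 9.65, 9.62, 9.79 and 9.47 on the first, and 9.58 and 9.29 in control. Every second array of Ptges2 was below every first one, and the controls overlapped both sets. Its difference was -0.58 ± 0.16 (log2 ± SE, limma adjusted p = 0.0246), and it was lost without di-SQ (-0.56, limma adjusted p = 0.0837), tri-SQ (-0.45, limma adjusted p = 0.0693) or tetra-SQ (-0.60, limma adjusted p = 0.0618). Against control the second arrays of Ptges2 gave -0.42 ± 0.19 (limma adjusted p = 0.151). Ptges3, the cytosolic synthase also known as the HSP90 co-chaperone p23, ran from 8.49 to 10.22 on the second arrays, from 9.0 to 10.18 on the first and from 9.68 to 9.83 in control. Its first arrays lay within the range of the second, with a difference of 0.04 ± 0.27 (log2 ± SE, limma adjusted p = 0.948).

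Of the genes that were not at background on all arrays, Pla2g4a varied least, by 0.60 log2 units over the 12 arrays. It had signals of 9.22, 8.79, 8.72, 8.98 and 8.75 (log2) on the second arrays of SQ and of mono-, di-, tri- and tetra-SQ, 8.70, 9.15, 8.90, 9.30 and 9.29 on the first, and 8.98 and 8.80 in control. The 3 sets overlapped, and second minus first was -0.18 ± 0.17 (log2 ± SE, limma adjusted p = 0.563). Its neighbour Ptgs2, 139 kb away, thus differed between the arrays where Pla2g4a did not pass. The difference between the 2 genes was not tested.

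Hpgd, the breakdown enzyme, had signals of 3.61, 3.33, 2.64, 3.13 and 3.06 (log2) on the second arrays of SQ and of mono-, di-, tri- and tetra-SQ, 3.12, 3.39, 2.90, 2.45 and 2.87 on the first, and 3.64 and 3.86 in control. All 10 compound arrays were below both controls, which held for 4.65% of all probe sets, but every value was under the negative control median. Ptgds, the lipocalin-type prostaglandin D synthase, ran from 3.05 to 3.59 on the second arrays, from 3.05 to 3.34 on the first and from 3.50 to 3.75 in control. Ptgds was likewise under the negative control median on all arrays, and neither gene passed any of the tests.

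**Figure D2:**
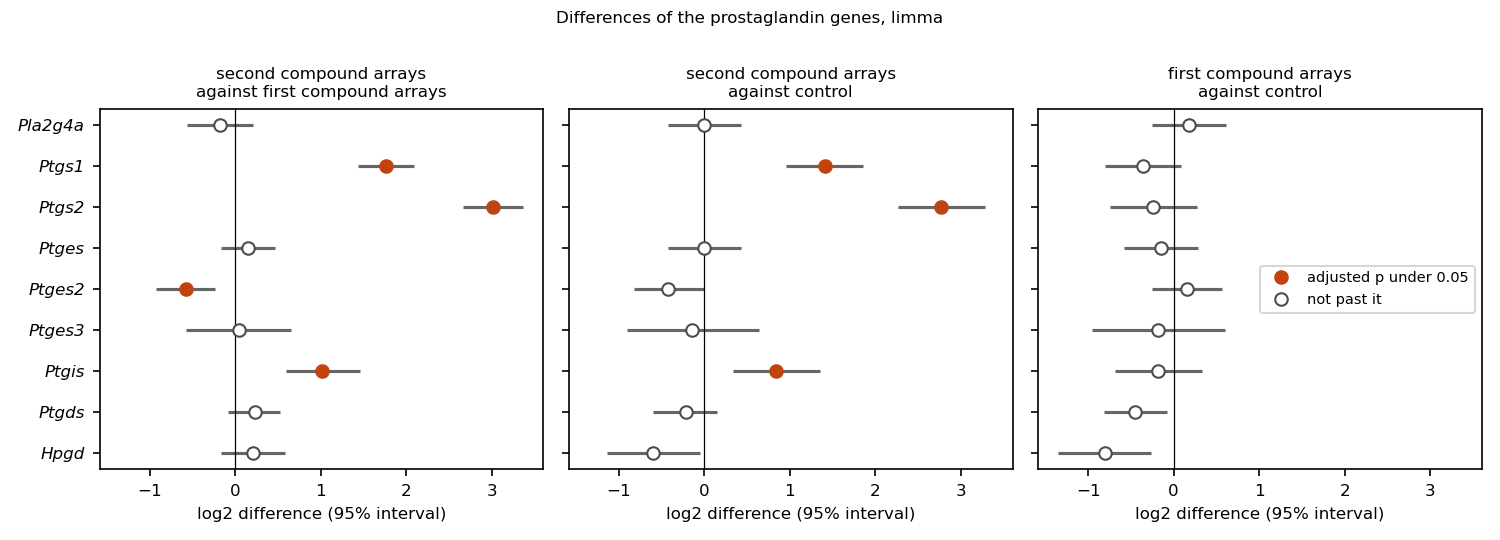
Log2 differences (x axis) of the 9 genes (rows) with 95% intervals from limma, for second against first compound arrays, second compound arrays against control and first compound arrays against control; filled points have an adjusted p under 0.05. Ptgs2, Ptgs1 and Ptgis are filled on the higher side in the left and middle panels, Ptges2 on the lower side in the left panel, and no point is filled in the right panel.

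Against control, 3 of the 9 genes passed on the second compound arrays (Ptgs1, Ptgs2 and Ptgis, all higher), where 19% of all probe sets passed, 9.69% as higher and 9.28% as lower. On the first compound arrays 0 of the 9 passed in limma, with 2 at an unadjusted p under 0.05, Ptgds (-0.45 ± 0.18) and Hpgd (-0.80 ± 0.26, log2 ± SE), both at background. There 0.0045% of all probe sets passed, and 12.2% had an unadjusted p under 0.05. Every second array was above both controls for the same 3 genes, which held for 18.6% of all probe sets, and every second array was above every first for these 3 too, which held for 9.89%. Every second array was below every first for Ptges2, which held for 8.86%. Every first array was below both controls for Ptges, Ptgds and Hpgd, as for 10.7% of all probe sets. For 0 of the 9 genes were all 10 compound arrays above both controls, which held for 3.91% of all probe sets. The comparisons of second and of first arrays with control share the control arrays.

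With each compound taken as labelled, 2 arrays against 2, 0 of the 9 genes passed in any of the 5 comparisons with control in limma, nor did any of the 22206 probe sets (0%). This fit had no block. At an unadjusted p under 0.05 the counts of the 9 in it were 0 for SQ, 0 for mono-SQ, 1 for di-SQ, 1 for tri-SQ and 2 for tetra-SQ, all of them Hpgd or, in tetra-SQ, also Ptgds. The shares of all probe sets under that unadjusted cut were 5.03%, 5.9%, 5.57%, 6.68% and 8.49% in the same order. Ptgs2 differed by 1.15 in SQ, 1.31 in mono-SQ, 1.15 in di-SQ, 1.08 in tri-SQ and 1.63 in tetra-SQ (log2, SE 1.59 each), and the smallest limma adjusted p was 0.783. Ptgs1 differed by 0.16 to 0.72 (SE 0.94 each) and Ptgis by 0.11 to 0.60 (SE 0.61 each), in the same compounds. These means stand between 2 unlike arrays: for Ptgs2 the second array exceeded the first by 2.64 to 3.53 within a compound, against 0.70 between the controls. Without the second array of the compound, Ptgs2 differed from control by -0.32 in SQ, -0.45 in mono-SQ, -0.38 in di-SQ, -0.37 in tri-SQ and 0.31 in tetra-SQ. Hpgd differed by -0.39 in SQ, -0.39 in mono-SQ, -0.98 in di-SQ, -0.96 in tri-SQ and -0.79 in tetra-SQ (SE 0.28 each), with a smallest limma adjusted p of 0.573. The authors' deposited tables gave signed fold changes for Ptgs2 of 2.21 in SQ, 2.48 in mono-SQ, 2.21 in di-SQ, 2.12 in tri-SQ and 3.08 in tetra-SQ. In the same tables of the authors, the false discovery rates for Ptgs2 were 0.7837 to 0.9271. In limma with the replicate number as a block, the SE of Ptgs2 was 0.52. Its unadjusted limma p was then 0.0492 in SQ, 0.0276 in mono-SQ, 0.0483 in di-SQ, 0.0601 in tri-SQ and 0.00936 in tetra-SQ. The smallest limma adjusted p of Ptgs2 was 0.25. That block gives the control arrays the same shift between the numbers, which they did not share with the compounds. All 5 comparisons share the control arrays.

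The compounds were then set against each other at the same dose and time. Over 10 pairs of compounds and 9 genes, 0 of 90 differences passed, with 1 at an unadjusted p under 0.05 (Ptges, tri-SQ against SQ), and 0% of all probe sets passed in each pair. Under that unadjusted cut were 1.85% to 5.26% of all probe sets in a pair. With the replicate number as a block, again 0 of 90 passed and 3 had an unadjusted p under 0.05, as had 617 to 2089 of the 22206 probe sets in a pair. With this block the smallest limma adjusted p was 0.542 within a pair and 0.913 over all 10 pairs together. The 95% intervals then reached 0.48 to 0.96 log2 units to either side of the estimate.

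For the derivatives against squalene, the blocked differences of Ptgs2 were 0.17 in mono-SQ (95% interval -0.39 to 0.73), 0.00 in di-SQ (-0.55 to 0.56), -0.06 in tri-SQ (-0.62 to 0.50) and 0.49 in tetra-SQ (-0.07 to 1.04), all in log2 units. Those of Ptgs1 were -0.24 in mono-SQ (-0.76 to 0.28), -0.10 in di-SQ (-0.62 to 0.41), -0.56 in tri-SQ (-1.08 to -0.04) and -0.07 in tetra-SQ (-0.59 to 0.44). The tri-SQ interval of Ptgs1 leaves out 0, but its limma adjusted p was 0.566. Ptges in tri-SQ differed by -0.54 (-1.04 to -0.04, limma adjusted p = 0.569), and Hpgd in di-SQ, at background, by -0.59 (limma adjusted p = 0.997). Ptgis differed by -0.17 in mono-SQ (-0.86 to 0.52), -0.33 in di-SQ (-1.01 to 0.36), -0.49 in tri-SQ (-1.18 to 0.20) and -0.36 in tetra-SQ (-1.05 to 0.33). No difference between a glycol derivative and squalene passed for any of the 9 genes. The intervals do not show that the compounds act alike: the widest, those of Ptges3, reached -1.46 in tri-SQ and 1.36 in mono-SQ and tetra-SQ.

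**Figure D3:**
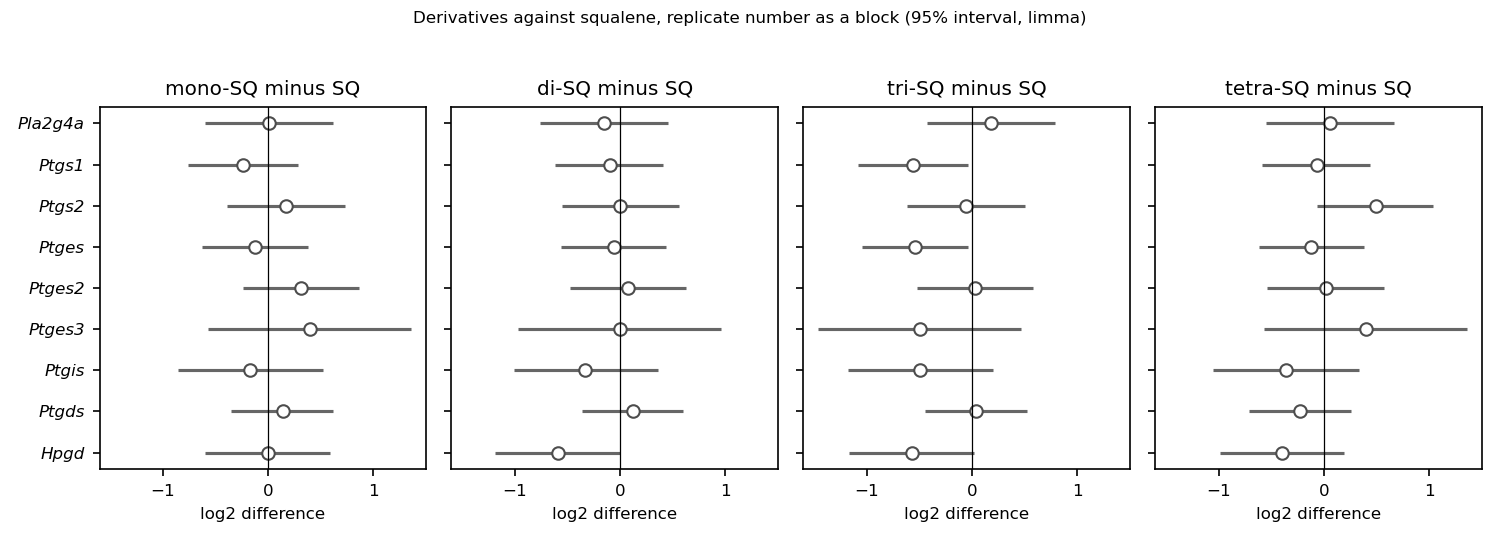
Log2 differences (x axis) of the 9 genes (rows) between each derivative and squalene, with the replicate number as a block and 95% intervals from limma. The intervals of Ptgs1 and Ptges in tri-SQ and of Hpgd in di-SQ leave out 0, the others cross it, and 0 of the differences had an adjusted p under 0.05.

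The rest of the prostanoid pathway was read from 5 further lists with 55 symbols, of which 50 had a probe set of their own. On the second against the first compound arrays, 4 of the 50 rose and 18 fell, where 11.2% of all probe sets rose and 9.96% fell. Their median log2 difference was -0.19, against -0.02 over all probe sets. Of these 22 genes, 17 were above the negative control median on all 12 arrays, and 16 were also called in the same direction on the second arrays against control. Both comparisons use the same second arrays, so these 16 calls are not separate support.

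Of 19 genes of arachidonate supply, 2 rose and 8 fell. Mgll and Pla2g12a, among those that fell, are named only for their dim signals. Mgll was below the negative control median on all 12 arrays. Pla2g12a was above it on 6 of the 12 and was not called on the second arrays against control (limma adjusted p = 0.0883). The lipases Pla2g2e (-3.30 ± 0.14), Pla2g16 (-2.89 ± 0.25), which is an abundant phospholipase of fat cells, and Pla2g6 (-1.49 ± 0.16) fell, and so did Lpcat3 (-1.62 ± 0.15, log2 ± SE), which puts polyunsaturated fatty acids into phospholipids. Pla2g2e had signals of 7.27 to 8.20 on the second arrays, 10.61 to 11.58 on the first, and 11.16 and 11.26 in control. The 2 that rose, named after their values were seen, were Pla2g7 (1.43 ± 0.19), which hydrolyses platelet-activating factor, and Anxa1 (0.98 ± 0.25), a phospholipid-binding protein known to inhibit phospholipase A2.

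Of 6 other terminal synthases, 0 passed the test as higher and 4 as lower, but 2 of the 4 rest on signals at background. The carbonyl reductases Cbr1 (-4.35 ± 0.21) and Cbr3 (-3.78 ± 0.27) had the largest differences of all the lists; CBR1 is known in humans to reduce prostaglandin E to prostaglandin F. Cbr1 had signals of 7.55, 7.26, 7.49, 6.92 and 7.06 (log2) on the second arrays of SQ and of mono-, di-, tri- and tetra-SQ, 11.03, 11.75, 11.78, 11.98 and 11.48 on the first, and 10.95 and 10.90 in control. The second arrays of Cbr1 were all below the others. On the second arrays, Cbr1 and Cbr3 (7.43 to 8.15) lay above the negative control median but below the 95th percentile of the negative controls. Low signals may therefore limit the size of these 2 differences. The 2 at background were thromboxane synthase (Tbxas1, -0.77 ± 0.17) and the prostaglandin F synthase Fam213b (-0.67 ± 0.18). Tbxas1 had signals of 3.66 to 3.95 on the second arrays, 4.28 to 5.36 on the first and 4.19 to 4.22 in control, below the negative control median on all 12 arrays. Fam213b had 5.39 to 6.32 on the second arrays, 6.15 to 6.90 on the first and 6.28 to 6.31 in control, around that level. Neither was called on the second arrays against control (limma adjusted p = 0.392 for Tbxas1 and 0.287 for Fam213b).

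Of 6 genes of breakdown and transport, 0 rose and 3 fell: the exporter Abcc4 (-2.13 ± 0.14), which carries prostaglandins out of cells, the mitochondrial dehydrogenase Hsd17b10 (-0.80 ± 0.22) and the prostaglandin reductase Ptgr2 (-0.57 ± 0.16). Abcc4 had signals of 7.28 to 8.40 on the second arrays, 9.53 to 10.61 on the first, and 9.85 and 9.93 in control, with no overlap between the second arrays and the rest. Hsd17b10, which acts on many other lipids as well, had signals of 10.82 to 12.17 on the second arrays, 12.42 to 12.74 on the first, and 11.56 on both control arrays. Its control arrays thus lay below all of the first arrays and within the range of the second. Against control, Hsd17b10 differed by 0.24 on the second arrays (limma adjusted p = 0.615) and by 1.04 on the first (limma adjusted p = 0.217), and neither passed.

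Of 9 prostanoid receptors, 2 rose and 0 fell. The prostaglandin F receptor Ptgfr had signals of 11.92, 11.85, 12.03, 12.15 and 12.33 (log2) on the second arrays of SQ and of mono-, di-, tri- and tetra-SQ, 10.75, 10.82, 10.42, 10.07 and 10.91 on the first, and 10.96 and 10.98 in control. All second arrays of Ptgfr were above the others, with a difference of 1.46 ± 0.17 to the first (log2 ± SE, limma adjusted p = 1.59e-04) and of 1.09 ± 0.22 to control (limma adjusted p = 0.00207). Ptger4, a prostaglandin E receptor that signals through cyclic AMP, differed by 1.07 ± 0.17, with signals of 6.41 to 6.83 on the second arrays, 4.82 to 6.05 on the first and 6.07 to 6.11 in control, at the level of the negative controls, and was not called on the second arrays against control (0.51, limma adjusted p = 0.182).

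Of 10 genes of the lipoxygenase branch, which makes leukotrienes from the same arachidonic acid, 0 rose and 3 fell: the microsomal glutathione transferases Mgst3 (-2.39 ± 0.32) and Mgst2 (-0.80 ± 0.18), and leukotriene C4 synthase (Ltc4s, -2.37 ± 0.24). Mgst2 was not called on the second arrays against control (-0.41, limma adjusted p = 0.24). Ltc4s had signals of 7.47 to 8.69 on the second arrays, 10.02 to 10.60 on the first, and 10.06 and 9.90 in control. The second arrays of Ltc4s did not overlap the others.

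**Figure D4:**
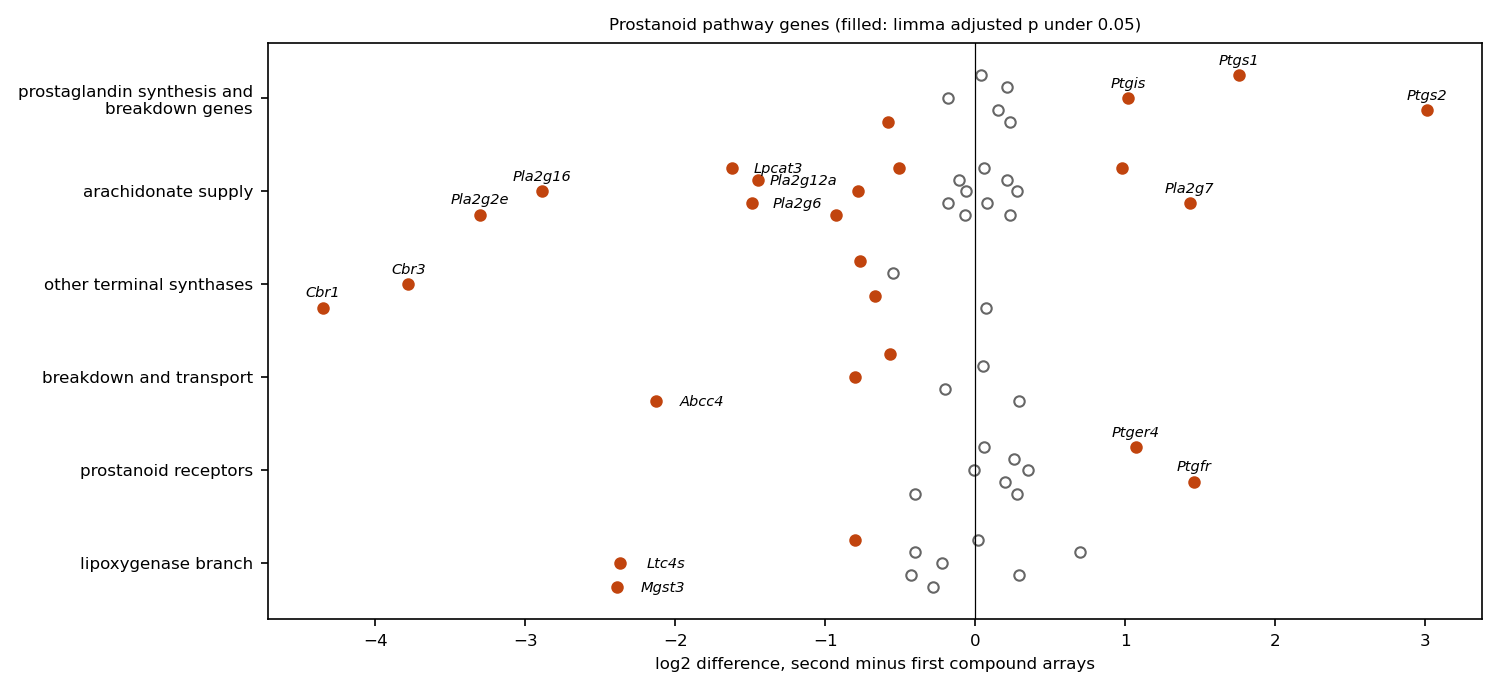
Log2 difference between second and first compound arrays (x axis) for each gene of the prostanoid pathway, by list (rows; the vertical offset within a row carries no value); filled points have a limma adjusted p under 0.05, and those past 1 log2 unit are named. Ptgs2 at 3.01 is the highest point and Cbr1 at -4.35 the lowest.

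To show which mRNAs ran most like each of the 6 genes that varied by at least 1 log2 unit, the deviations from the control mean were compared over the 12 arrays, and the 3 genes (predicted loci left out) with the smallest root mean square difference were taken. For Ptgs1 these were the water channel Aqp1 (0.10 log2 units), the lysyl oxidase Loxl3 (0.14) and Ptprn (0.15). For Ptgs2 they were Srpx2 (0.30), the EGF receptor inhibitor Errfi1 (0.32) and Enpp3 (0.33). For Ptgis they were Kcnip3 (0.17), Fsd1 (0.17) and Layn (0.18), of which Kcnip3 was above the negative control median on 2 of the 12 arrays and Fsd1 on 0. For Ptges2 they were the cytosolic isocitrate dehydrogenase Idh1 (0.13), Tmem141 (0.15) and Pmp22 (0.15). Ptges3 ran with Zfp27 (0.21), Tipin (0.22) and Sdf4 (0.25). Hpgd, at background, ran with Zkscan4 (0.21), Arhgef5 (0.21) and Fgb (0.22), of which Zkscan4 and Fgb were above the negative control median on 0 of the 12 arrays. These are descriptions of the same 12 arrays, whose main division is that between second and first compound arrays.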

How the data were processed

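RNA was read on 12 Clariom S mouse arrays, 2 in each of 6 groups, from the labels. Per the series' design text, SST-RMA normalization was run by the authors in the Transcriptome Analysis Console, version 4.0.1. The main deposited table gives 1 log2 signal per probe set and array, per the file headers. Other deposited tables hold signed fold changes (a score below 0 for a fall) and p-values with false discovery rates of each compound against control, as the authors computed them; their test is not given in the sources used here. A further deposited log2 table of the same arrays holds the negative control probe sets and served as background and as an alternative; each of the 12 arrays matched itself best there (correlation at least 0.9996).

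Of 22206 probe sets, 21367 had 1 symbol, 836 several and 3 none; genes were named from those with 1. No filter or scaling was added. limma 3.58.1 in R 4.3.3 (lmFit, eBayes, two-sided, Benjamini-Hochberg over all probe sets, threshold 0.05) fitted each compound against control and 10 compound pairs over 12 arrays and 6 groups, second against first compound arrays with compound as a block over 10 arrays, and both sets against control in a 3-group fit. The main fits of each compound against control and of the compound pairs used no block, since the labels do not state a pairing. As an alternative, the replicate numbers, from the titles, paired the compound arrays, since all 10 correlations were over 0.1 (0.48 to 0.719). The number of arrays limits the precision. The fits were tested on simulated data. Genes named from the lists are up to 4 called with the largest difference. The members, lists and comparisons were chosen with earlier results of these data known. Of the breakdown and transport list, 1 gene is not reported here. Plaat3 and Prxl2b were read under the older symbols Pla2g16 and Fam213b. Alternatives were another table, quantile normalization, a filter on dim probe sets, trend and robust moderation, blocks, and leaving out arrays.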

Additional observations from a re-analysis of the deposited data

Results flagged for a closer look

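On the first compound arrays, tetra-SQ stood apart for Ptgs2 at 6.55 (log2), with the other 4 compounds at 5.79 to 5.92; these signals lie around the negative control medians (6.09 to 6.66), and the 2 control arrays read 5.89 and 6.59. On the second compound arrays, tri-SQ stood apart for Ptges at 12.49, with the others at 13.04 to 13.25. In both, the gap to the nearest array was above Dixon's 95% critical value for 5 values; 18 sets were examined, and chance marks about 1 in 20. The second and first arrays of the same compounds differed in limma for Ptgs2 (3.01), Ptgs1 (1.76), Ptgis (1.02) and Ptges2 (-0.58, log2).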

How the results depend on the processing

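The calls for Ptgs2 and Ptgs1 in second against first and in second compound arrays against control kept direction and threshold under every alternative run. Of the 9 genes, 0 were called in any compound against control under each alternative run, where the filter on dim probe sets leaves out Ptgds and Hpgd. The compound pairs likewise gave 0 under the alternatives run for them: the replicate block, which pairs the compound arrays, the other deposited table, quantile normalization and leaving out arrays. With the second compound arrays as a block, differences from control that did not pass changed sign: Ptgs1 to -0.16 in SQ, -0.40 in mono-SQ, -0.27 in di-SQ, -0.72 in tri-SQ and -0.24 in tetra-SQ; Ptgs2 to -0.36 in SQ, -0.19 in mono-SQ, -0.36 in di-SQ and -0.42 in tri-SQ; Ptgis to -0.08 in mono-SQ, -0.24 in di-SQ, -0.40 in tri-SQ and -0.27 in tetra-SQ. Leaving out 1 array moved Ptgs1 between -0.07 and 1.51 in SQ, -0.37 and 1.33 in mono-SQ, -0.26 and 1.49 in di-SQ, -0.93 and 1.25 in tri-SQ, and -0.16 and 1.45 in tetra-SQ. It moved Ptgs2 between -0.32 and 2.61 in SQ, -0.45 and 3.08 in mono-SQ, -0.38 and 2.68 in di-SQ, and -0.37 and 2.54 in tri-SQ. It moved Ptgis between -0.04 and 1.25 in SQ, -0.36 and 0.92 in di-SQ, -0.54 and 0.75 in tri-SQ, and -0.34 and 0.83 in tetra-SQ. The lower end was without the second array of the compound, and the lone array left is assumed to vary like the other groups. Leaving out a compound or a control array moved second minus first between -0.22 and 0.33 for Ptges3 and between -0.66 and -0.45 for Ptges2 (call lost without di-SQ, tri-SQ or tetra-SQ), first minus control for Ptgs2 between -0.59 and 0.11, and second minus control between -0.05 and 0.14 for Ptges, -0.29 and 0.14 for Ptges3, -0.09 and 0.09 for Pla2g4a and 0.74 and 0.93 for Ptgis (call lost without either control). Quantile normalization gave -0.04 for Pla2g4a in second minus control. The probe sets called over the whole array were 0 to 2 for first against control (0 with the other deposited table, with quantile normalization and with trend and robust moderation, against 1) and 1880 to 5037 for second against control when leaving out arrays (1896 without control replicate 1 and 1880 without control replicate 2, against 4211). The block of second compound arrays removes their mean difference from the first. Its values therefore set the compounds against control at the level of the first arrays. The causes of the other changes were not tested, except that leaving out arrays leaves fewer. Signals at background limit Ptgds, Hpgd, Ptgr1, Tbxas1, Fam213b, Ptger4, Mgll, Pla2g12a and the lower values of Ptgs2.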

Other observations

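The leukotriene A4 hydrolase Lta4h was called as higher on the second compound arrays against control (0.77, limma adjusted p = 0.0451) and not in second against first arrays (0.70, limma adjusted p = 0.0542). Over the 5 lists, 5 of 50 genes rose and 14 fell in second compound arrays against control, where 9.69% of all probe sets rose and 9.28% fell. In first compound arrays against control, 0 of 50 were called in limma, as were 0.0045% of all probe sets. The 5 that rose include the prostaglandin reductase Ptgr1, whose signals were below the negative control median on all 12 arrays (5.16 to 6.23 on the second arrays, 5.10 to 6.04 on the first, 4.14 and 4.28 in control). Lta4h and Ptgr1 were chosen after their values were seen.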
